A study of Canis lupus familiaris with 8 samples.

Results

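CCL4 and CCL5 are chemokine genes of cytotoxic lymphocytes, and their levels were followed here through the T cells of canine blood. They are 2 of the 20257 genes in the count tables and 2 of the 26 chemokine ligand genes that have a row there. Both were found by their symbols (CCL4, ENSCAFG00000018164, and CCL5, ENSCAFG00000018171), and neither was used to place a cell in any class described first. TCRαβ+ T cells had been sorted from peripheral blood of 4 healthy Beagles, all with routine vaccinations, and frozen. They were profiled by droplet 5' single-cell RNA sequencing with receptor sequencing, 1 library of each kind per dog. Ages were 5 years for the only female (dog 1), 7 years for the males numbered dogs 2 and 3, and 9 years for the male numbered dog 4. The replicate was the dog (n = 4), and effects of age or sex cannot be told apart from the animal.

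CCL4 (MIP-1β) and CCL5 (RANTES) are small secreted proteins that attract T cells, monocytes and NK cells. CCR1 and CCR3 are among the receptors of CCL5. In human and mouse T cells, CCL5 is a late gene that memory and effector CD8+ cells keep transcribed and store for rapid release, while CCL4 is made soon after receptor signals. GZMB and GZMK encode granzymes, proteases of cytotoxic granules, and FCER1G encodes a signalling adaptor of Fc and NK receptors that marks innate-like T cells. In the dog genome annotation of RefSeq (UU_Cfam_GSD_1.0) CCL4 lies next to CCL3 with no protein-coding gene between them, and 6 protein-coding genes lie between CCL4 and CCL5. Positions are not given, because the counts were made on another build, CanFam 3.1.

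After removal of cells with fewer than 500 or more than 20000 unique molecular identifiers (UMIs, the counted transcript molecules) or over 10% mitochondrial UMIs, 31909 of 33125 barcodes remained. The dogs contributed 7096 to 8454 cells each, with median depths of 3599 to 3932 UMIs. Whole libraries held 2421, 5849, 8100 and 13351 CCL4 UMIs and 16408, 19121, 11274 and 21265 CCL5 UMIs in dogs 1 to 4. Of the cells, 1094 (3.43%) carried a barcode that also occurred in another dog. Positive (+) means at least 1 UMI of a gene in a cell, and single-positive (sp) for CD8A or CD4 means UMIs of one and none of the other. Levels are CPM, the UMIs of the gene in all cells of a class in a dog divided by all UMIs of those cells and multiplied by 1e6, given as mean ± SD over dogs, and fewer positive cells cannot be told apart from less RNA per cell in a CPM. The scale is not per transcript length, so the level of CCL4 is not compared with that of CCL5.

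Both chemokines were concentrated in CD8A+ sp cells. CCL4 stood at 647, 792, 779 and 1400 CPM in CD8A+ sp cells of dogs 1 to 4 and at 9.76, 20, 23.7 and 58.5 CPM in their CD4+ sp cells. CCL5 stood at 4817, 2588, 1095 and 2194 CPM in CD8A+ sp cells and at 29.0, 52.3, 33.6 and 83.2 CPM in CD4+ sp cells. CD8A+ and CD4+ values did not overlap for either gene, and the dog with the highest CCL4 (dog 4) was not the dog with the highest CCL5 (dog 1). CD8A+ sp cells were 19.8% ± 8.20 of all cells (n = 4) but held 83.1% ± 3.11 of the CCL4 UMIs and 84.6% ± 1.33 of the CCL5 UMIs. In edgeR's quasi-likelihood test on UMIs summed per dog and class, CCL4 was higher by 5.01 on the log2 scale (SE 0.52, adjusted p = 0.000261). CCL5 was higher by 5.75 (SE 0.53, adjusted p = 0.000142). For comparison, 14.1% of the 10118 genes tested passed an adjusted p of 0.05 in this contrast.

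**Figure D1:**
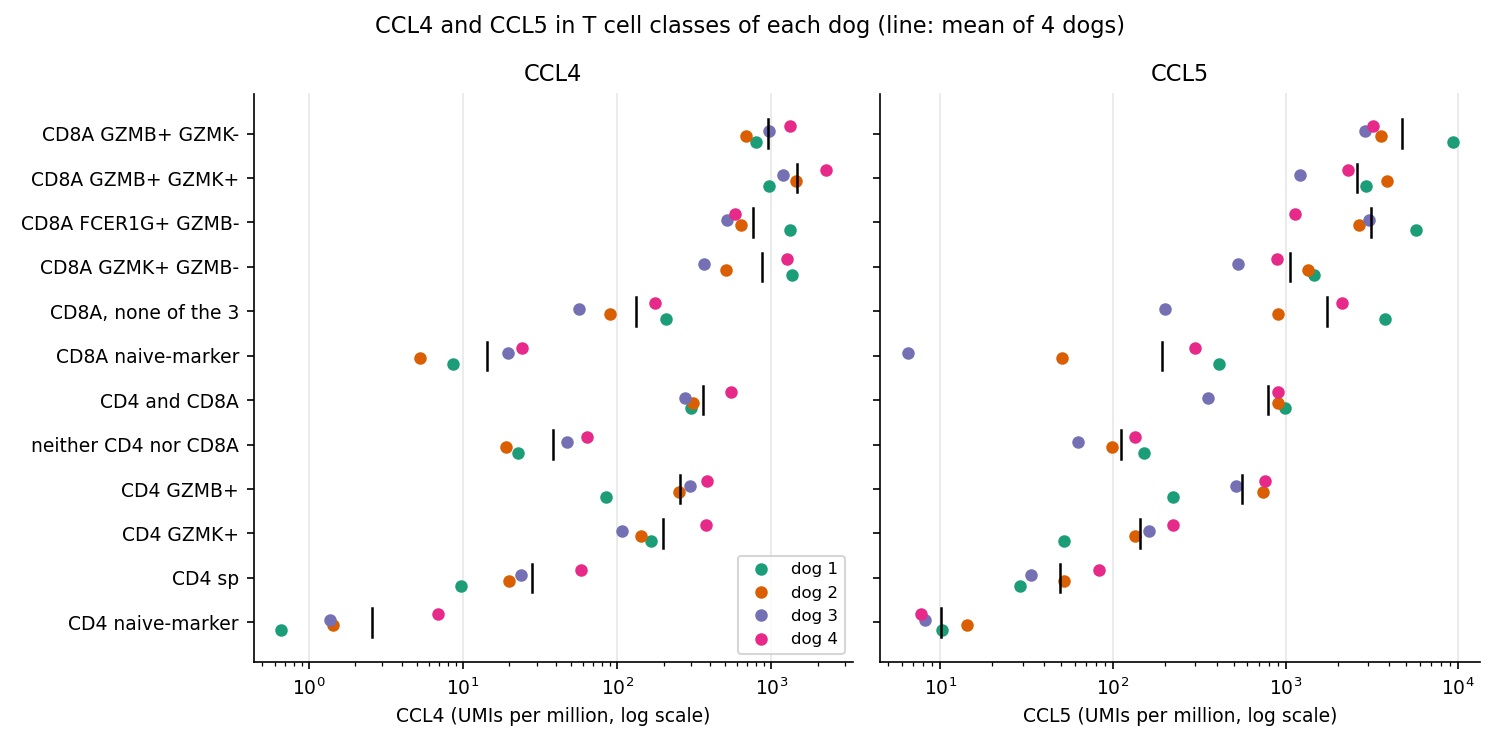
CPM of CCL4 (left) and CCL5 (right, both log scales) in 12 classes of T cells, with 1 point per dog and a black line at the mean of the 4 dogs. The naive-marker classes are positive for CCR7 and LEF1 and lack GZMB, GZMK and FCER1G, the 3 genes meant by "none of the 3". CCL4 has its highest mean of the 12, 1468 CPM, in CD8A+ cells with both granzymes, and CCL5 has its highest, 4732 CPM, in those with GZMB but not GZMK. In that class dog 1 stood at 9268 CPM of CCL5 and the other dogs at 2874 to 3588 CPM.

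CCL4 UMIs were found in 47.3%, 53.3%, 53.6% and 64.8% of CD8A+ sp cells of dogs 1 to 4, and CCL5 UMIs in 47.9%, 44.1%, 26.0% and 43.1%. Dog 3 had the lowest share for CCL5 only. For reference, CD4+ sp cells with CCR7 and LEF1 and without GZMB, GZMK or FCER1G were examined (3982 cells). Their median depths were 3841 to 4608 UMIs per dog, against 3586 to 3932 in CD8A+ sp cells. These reference cells held CCL4 UMIs in 0.679% ± 0.480 of cells and CCL5 UMIs in 3.46% ± 2.06 (n = 4). All CD4+ sp cells, which include the reference cells, held CCL5 UMIs in 4.36% ± 1.92. They held 10 or more CCL5 UMIs in 0.443% ± 0.283, against 0.0281% ± 0.0562 in the reference cells. Whether free RNA contributes to these shares was not tested. After random thinning of CD8A+ sp cells to a depth of 2000 UMIs, with 58, 163, 268 and 226 cells of lower depth dropped, 45.9% ± 8.22 held CCL4 and 38.0% ± 10.1 CCL5. The same cells unthinned gave 56.1% and 41.0%. At this lower depth the share for CCL4 dropped further than that for CCL5.

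Cells without a UMI of either coreceptor (11510 cells, 36.1% ± 1.79 of all cells) had 38.3 ± 21.2 CPM of CCL4 and 112 ± 39.4 CPM of CCL5. The authors could not tell true double-negative cells from cells whose CD4 transcripts were missed. The values are therefore not those of a double-negative population. Cells with both coreceptors (725 cells) had 358 ± 126 CPM of CCL4 and 789 ± 292 CPM of CCL5, and their median depths of 5418 to 5955 UMIs per dog were higher than those of either sp class. Whether pairs of cells in 1 droplet contribute to this class was not tested.

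Few other chemokine ligands were detected. Of 26 ligand genes with a row, 4 passed the filter on low counts in the comparison of CD8A+ with CD4+ sp cells, and CCL3, CCL4 and CCL5 were higher in CD8A+ cells while CXCL10 did not pass. CCL3, the neighbour of CCL4 that encodes MIP-1α, was sparse, with 6, 13, 11 and 47 UMIs in the CD8A+ sp cells of dogs 1 to 4 and 0, 1, 0 and 0 in their CD4+ sp cells. Of these, 6, 10, 11 and 42 UMIs lay in GZMB+ cells. CCR1 differed by 0.91 on the log2 scale between CD8A+ and CD4+ sp cells (adjusted p = 0.148), and CCR3 was too low to be tested.

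The 2 chemokines rose together with other cytotoxic genes. Of 17 cytotoxic effector genes tested, 13 were higher and none lower in CD8A+ sp cells, with a median log2 difference of 3.68 against -0.00455 over all genes. FCER1G rose by 8.28 on the log2 scale, GZMA by 8.36 and GZMB by 7.38 (all adjusted p at or below 6.95e-06). Of 7 effector transcription factors 5 were higher, among them ZEB2 (5.31, adjusted p = 9.08e-05), EOMES (4.18, adjusted p = 0.000156) and TBX21 (2.87, adjusted p = 0.00173), which encodes T-bet. CX3CR1, a chemokine receptor of circulating effector cells, rose by 4.43 (adjusted p = 0.00031). Of 8 naive genes 5 were lower, including TCF7, a factor that keeps T cells unspecialized, which fell by 0.76 (adjusted p = 0.00549). Markers of other blood cells moved with the lineage in part, and their part in the result was not tested. The 3 NK genes summed to 131 to 199 CPM in CD8A+ sp cells and to 0.421 to 1.87 CPM in CD4+ sp cells, of which KLRF1 gave at most 0.653 CPM. The 5 myeloid genes with a row summed to 85.2 to 268 CPM and 0.702 to 2.36 CPM, almost entirely ITGAM, while CSF1R, CSF3R and S100A12 stood at 0 in both. The 5 B cell genes summed to 9183 to 10485 CPM in CD8A+ and 9216 to 10539 CPM in CD4+ sp cells, nearly all from the CD79A row, and PAX5 was at 0. Of the 2 platelet genes with a row PPBP was at 0.

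Within CD8A+ sp cells, CCL4 differed more with GZMB than CCL5 did, in each of the 4 dogs. In GZMB+ cells CCL4 stood at 895, 1264, 1161 and 1980 CPM in dogs 1 to 4, and in GZMB- cells at 350.4, 253, 195 and 487 CPM. Every GZMB+ value lay above every GZMB- value. The log2 difference was 2.03 (SE 0.28, adjusted p = 0.00190), in a contrast where 7.40% of 8958 genes passed. CCL5 stood at 5657, 3797, 1466 and 2564 CPM in GZMB+ cells and at 3816, 1210.3, 524 and 1612 CPM in GZMB- cells. It was higher with GZMB in each of the 4 dogs, but the groups overlapped, and the log2 difference of 0.88 (SE 0.53) had an adjusted p of 0.378. With the dog as a replicate block in the same edgeR test the CCL5 difference was 1.06 and passed (adjusted p = 0.000115). Median depths were 3313 to 3815 UMIs per dog in GZMB+ cells and 4060 to 4240 in GZMB- cells, and the part of depth was not tested.

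In the same contrast 10 of 16 cytotoxic genes were higher and none lower, with PRF1, which encodes perforin, higher by 2.35 (adjusted p = 0.000746) and FASLG by 1.98 (adjusted p = 0.0011). The transcription factors TBX21 (2.07, adjusted p = 0.00128), EOMES (1.82, adjusted p = 0.0013) and ZEB2 (2.05, adjusted p = 0.00245) also rose with GZMB. Naive genes fell in 4 of 7 cases, led by CCR7, the lymph node homing receptor (-2.61, adjusted p = 0.00533). ITGAM summed with the other myeloid genes to 143 to 380.4 CPM with GZMB and 16.3 to 91.2 CPM without it, and the NK genes to 164 to 236 and 63.7 to 158 CPM. The part of these in the chemokine differences was not tested.

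With GZMK, CCL4 passed the test and CCL5 did not. CCL4 stood at 1024, 1216, 1001 and 2064 CPM in GZMK+ and at 436, 304, 327 and 644 CPM in GZMK- CD8A+ sp cells, with no overlap between the groups. The log2 difference was 1.67 (SE 0.27, adjusted p = 0.00409), where 5.17% of 8901 genes passed. CCL5 stood at 2740, 3230, 1056 and 2032 CPM in GZMK+ cells and at 5980, 1851, 1174 and 2379 CPM in GZMK- cells. CCL5 was lower with GZMK in dogs 1, 3 and 4 and higher in dog 2. Its log2 difference was -0.30 (SE 0.45, adjusted p = 0.821), and 0.26 without dog 1 (adjusted p = 0.822). Cytotoxic genes rose with GZMK in 9 of 16 cases, for example KLRG1, an inhibitory receptor of effector cells (1.95, adjusted p = 0.00259). IFNG was the only cytotoxic gene called lower (-1.95, adjusted p = 0.016), a call lost without dog 1 (-1.78, adjusted p = 0.0711), dog 2 (-1.85, adjusted p = 0.0624) or dog 4 (-1.93, adjusted p = 0.0713). EOMES rose by 2.47 (adjusted p = 7.53e-07). Of the NK genes NCR1 was also higher with GZMK, by 2.14 (adjusted p = 0.0003), and the NK genes summed to 156 to 200.2 CPM with GZMK and 80.2 to 199 CPM without. The myeloid genes, mostly ITGAM, summed to 137 to 379 CPM and 37.2 to 142 CPM, and the part of these in the result was not tested.

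Cells with only one of the granzymes were then compared directly. CCL5 stood at 9268, 3588, 2874 and 3196 CPM in GZMB+ GZMK- cells (919 cells) and at 1470, 1345, 528 and 893 CPM in GZMK+ GZMB- cells (759 cells). All 4 values of the first class lay above all 4 of the second, and dog 1 was far above the other dogs. The log2 difference was 2.12 (SE 0.35, adjusted p = 0.00319), where 2.85% of 6740 genes passed. CCL4 stood at 795, 690, 965 and 1329 CPM in GZMB+ GZMK- cells and at 1361, 508, 365 and 1265 CPM in GZMK+ GZMB- cells. These values overlapped, with a log2 difference of 0.09 (adjusted p = 0.962). It became 0.42 without dog 1 (adjusted p = 0.713) and -0.18 without dog 3 (adjusted p = 0.903). In dog 1 the GZMK+ GZMB- class held 34 cells. Of these, 10 with FCER1G held 140 CCL4 UMIs and 24 without it held 47. Of 15 cytotoxic genes tested only 3 were called, all higher with GZMB, and the median log2 difference was -0.0402 against -0.00400 over all genes. Among the 3 were GZMA (2.01, adjusted p = 0.00361) and CST7, an inhibitor of granule cathepsins (0.96, adjusted p = 0.00271). EOMES was lower with GZMB (-0.85, adjusted p = 0.0103), as was CCR7 (-2.78, adjusted p = 0.000715).

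The difference between the 2 chemokines was also taken within each dog, as the log2 ratio of CCL4 minus that of CCL5, over 8 contrasts. From GZMB- to GZMB+ CD8A+ sp cells, CCL4 rose more than CCL5 by 0.975 ± 0.309 (SD, 4 of 4 dogs). From GZMK- to GZMK+ cells it rose more by 1.81 ± 0.479 (4 of 4 dogs). Between GZMB+ GZMK- and GZMK+ GZMB- cells the sign was the opposite, at -1.80 ± 1.14, with CCL5 ahead in 4 of 4 dogs. The exact two-sided sign-flip permutation test gave p = 0.13 for each, the smallest value that 4 dogs allow, and 0.333 after adjustment over the 8 contrasts. In the remaining contrasts the sign differed between dogs. From GZMK- to GZMK+ CD4+ sp cells CCL4 rose more by 2.24 ± 1.83, in 3 of 4 dogs (p = 0.250, same exact test). In dog 3 the log2 ratios there were 3.49 for CCL4 and 3.73 for CCL5.

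**Figure D2:**
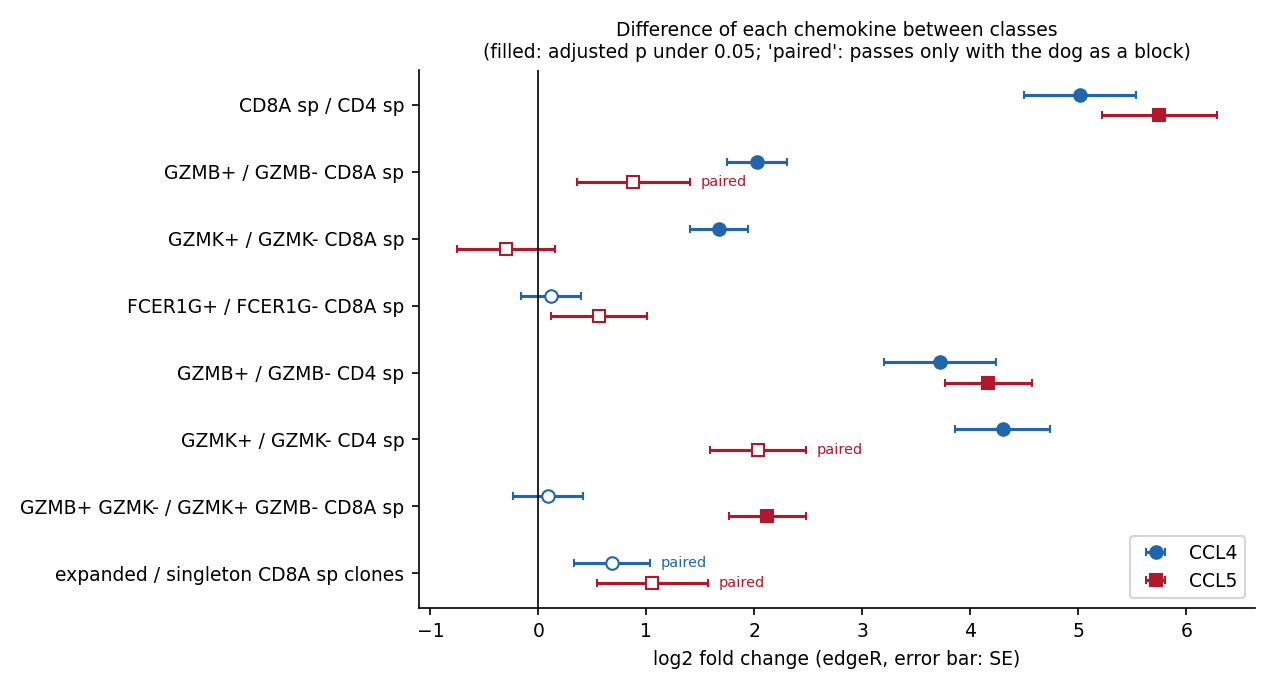
Log2 fold change of CCL4 (circles) and CCL5 (squares) in 8 comparisons of T cell classes from edgeR's quasi-likelihood test, with the standard error as the bar. Filled symbols have an adjusted p under 0.05, and "paired" marks those that pass only with the dog as a block. The estimate of CCL4 exceeds that of CCL5 for GZMK in both lineages, though in CD4+ sp cells in only 3 of 4 dogs. Between GZMB+ GZMK- and GZMK+ GZMB- cells that of CCL5 is larger.

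When CD8A+ sp cells were divided by GZMB, GZMK and FCER1G at once, CCL4 was lowest where all 3 were absent, and CCL5 in those cells differed widely between dogs. In these 1416 cells CCL4 stood at 207, 89.8, 56.4 and 175 CPM in dogs 1 to 4. CCL5 stood at 3769, 901, 200.1 and 2123 CPM, with dog 3 far below the other dogs, and 18.0% ± 13.1 of the cells held 10 or more CCL5 UMIs. Among cells with CCR7 and LEF1 as well (375 cells), CCL5 stood at 410, 50.8, 6.49 and 299 CPM and CCL4 at 8.66, 5.26, 19.5 and 24.0 CPM. Cells with GZMB and GZMK but no FCER1G (2355 cells) had the highest mean CCL4 of these 8 classes, 1521 ± 613 CPM, and CCL5 of 2264 ± 885 CPM. Cells with GZMB alone (594 cells) had 961 ± 448 CPM of CCL4 and CCL5 of 10919, 3400, 1783 and 3370 CPM in dogs 1 to 4, with a mean of 4868 ± 4104 CPM that fell to 2851 CPM without dog 1. With FCER1G alone (321 cells, 3 dogs with enough cells) CCL4 was 348 ± 72.3 CPM and CCL5 2472 ± 1159 CPM.

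FCER1G by itself did not pass the test for either chemokine. CCL4 stood at 1161, 982, 728 and 1065 CPM in FCER1G+ CD8A+ sp cells and at 498, 724, 789 and 1540 CPM in FCER1G- cells. It was higher with FCER1G in dogs 1 and 2 and lower in dogs 3 and 4, and the log2 difference of 0.12 (adjusted p = 0.958) became -0.17 without dog 1 (adjusted p = 0.880). CCL5 stood at 5328, 4339, 2805 and 2060 CPM with FCER1G and at 4670, 1968, 763 and 2251 CPM without it. It was higher with FCER1G in 3 of 4 dogs, by 0.56 on the log2 scale (SE 0.44, adjusted p = 0.715), where 1.92% of 8504 genes passed. CTSW, a granule cathepsin of killer cells, did rise with FCER1G (0.92, adjusted p = 0.0037).

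Cells with the TRAV9-11/TRAJ28 alpha chain, a rearrangement found in all 4 dogs, were compared with cells of other alpha chains. In 675 such CD8A+ sp cells CCL5 stood at 2950, 3497, 2149 and 6133 CPM, against 5889, 2494, 954 and 1881 CPM in 3897 cells with other alpha chains. It was higher in dogs 2, 3 and 4 and lower in dog 1 (exact sign-flip permutation p = 0.375). CCL4 stood at 893, 1087, 832 and 798 CPM against 616, 784, 761 and 1353 CPM, higher in 3 of 4 dogs (p = 0.875, same exact test).

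CD4+ sp cells with granzyme transcripts also carried the chemokines. CCL4 stood at 84.5, 251, 299 and 382 CPM in GZMB+ CD4+ sp cells (305 cells) and at 8.88, 10.1, 14.5 and 47.3 CPM in GZMB- cells. The groups did not overlap, and the log2 difference was 3.72 (SE 0.52, adjusted p = 0.00365), where 2.02% of 9502 genes passed. The call was lost without dog 2 (3.52, adjusted p = 0.0931) or dog 3 (3.54, adjusted p = 0.0885). Among GZMB+ FCER1G- CD4+ sp cells, those with GZMK (4, 18, 23 and 31 cells) held 5, 89, 80 and 146 CCL4 UMIs. Those without GZMK (28, 82, 50 and 62 cells) held 9, 65, 29 and 19. The part of GZMK in the CCL4 difference was not tested. CCL5 stood at 223, 739, 520 and 758 CPM with GZMB and at 26.7, 23.2, 17.3 and 59.9 CPM without it, a log2 difference of 4.17 (SE 0.40, adjusted p = 0.000570). Of the GZMB+ CD4+ sp cells, 13.9% ± 2.70 held CCL5 UMIs and 6.51% ± 0.304 held 10 or more. GZMB+ CD4+ sp cells were the deeper ones, with median depths of 4229 to 5433 UMIs per dog against 3742 to 4089.5 in GZMB- cells. Whether pairs of cells in 1 droplet contribute to them was not tested.

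In CD4+ sp cells CCL4 passed the test with GZMK, while CCL5 was higher in each dog but passed in some settings only. CCL4 stood at 167, 142, 108 and 376 CPM in GZMK+ cells (1066 cells) and at 4.99, 8.85, 9.59 and 18.2 CPM in GZMK- cells, a log2 difference of 4.30 (SE 0.44, adjusted p = 0.00314), where 0.252% of 9511 genes passed. CCL5 stood at 52.4, 135, 161 and 224 CPM with GZMK and at 28.3, 44.9, 12.2 and 65.5 CPM without it. It was higher in all 4 dogs with overlapping groups, by 2.03 (SE 0.44, adjusted p = 0.115), and passed with the replicate block (2.09, adjusted p = 7.71e-08). GZMK+ CD4+ sp cells were deeper as well, with median depths of 4158 to 4426 UMIs per dog against 3736 to 4086 in GZMK- cells. The part of depth or of cell pairs was not tested. CCR1, a receptor of CCL5, was higher in GZMK+ CD4+ sp cells by 2.25 (adjusted p = 0.0449). That call was lost without dog 2 (2.0, adjusted p = 0.447), dog 3 (2.51, adjusted p = 0.259) or dog 4 (2.31, adjusted p = 0.122). ITGAM was also called higher with GZMK, by 5.17 (adjusted p = 0.00872), a call lost without dog 3 (5.03, adjusted p = 0.154). The myeloid genes summed to 3.1 to 14.4 CPM in GZMK+ and 3.16 to 29.9 CPM in GZMB+ CD4+ sp cells, against 0.702 to 2.36 CPM in all CD4+ sp cells. The NK genes summed to 1.97 to 5.52 CPM and 2.21 to 13.6 CPM, against 0.421 to 1.87 CPM. The part of these in the results was not tested.

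The granzyme differences in the 2 lineages were compared by an interaction term on the log2 scale. Mean CCL5 was 3371 CPM with and 1791 CPM without GZMB in CD8A+ sp cells, and 560 and 31.8 CPM in CD4+ sp cells. Which lineage has the larger GZMB difference of CCL5 thus depends on the scale. The GZMB difference of CCL5 was smaller in CD8A+ than in CD4+ sp cells by -3.27 on the log2 scale (adjusted p = 0.106), where 0.0427% of 9372 genes passed, and by -3.32 with the replicate block (adjusted p = 0.00229). That of CCL4 was smaller by -1.68 (adjusted p = 0.353), and by -1.81 with the block (adjusted p = 0.0140). The GZMK difference of CCL4 was smaller in CD8A+ cells by -2.61 (adjusted p = 0.10), where 0.0108% of 9263 genes passed. It was -2.57 with the block (adjusted p = 1.16e-05) and -2.51 without dog 4 (adjusted p = 0.00657). For CCL5 the GZMK term was -2.31 (adjusted p = 0.374), and -2.47 with the block (adjusted p = 0.0354). FCER1G+ CD4+ sp cells numbered 6, 21, 8 and 12, which was too few for a test.

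Across 17 gene-defined states that held 20 or more cells in every dog, the chemokines had different orders. CCL4 was highest in CD8A+ sp cells with ZEB2, a repressor of memory genes in effector cells, at 1597 ± 372 CPM (n = 4). GZMB+ FCER1G- cells (1381 ± 571 CPM), EOMES+ cells (1283 ± 464 CPM), KLRG1+ cells (1164 ± 454 CPM) and GZMB+ FCER1G+ cells (1135 ± 276 CPM) followed. These neighbours were in that order in only 2 or 3 of 4 dogs. FCER1G+ GZMB- cells (764 ± 374 CPM, and 578 CPM without dog 1) lay above the next state in 4 of 4 dogs. That next state was the TOX+ TCF7+ FCER1G- state (424 ± 74.8 CPM). TOX and TCF7 are transcription factors that mark long-lived or chronically stimulated CD8+ cells.

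For CCL5, that TOX+ TCF7+ FCER1G- state ranked second at 7436, 2693, 542 and 2913 CPM in dogs 1 to 4, with dog 3 far below and dog 1 far above the rest. Without dog 1 its mean fell from 3396 to 2049 CPM and its rank to 6. GZMB+ FCER1G+ cells were highest at 3999 ± 1409 CPM, and the top 7 states, down to KLRG1+ cells at 2179 ± 993 CPM, were all CD8A+ and did not separate dog by dog. KLRG1+ cells lay above the next state, MKI67+ TOP2A+ cycling cells (687 ± 530 CPM, and 424 CPM without dog 4), in 4 of 4 dogs. Among CD4+ states CCL5 had its highest mean in cells with KLRK1, the gene of the activating receptor NKG2D (418 ± 414 CPM). It stood there at 1016, 224, 80.1 and 353 CPM, the first from 26 cells, and the mean without dog 1 was 219 CPM. CXCR3+ CCR9+ cells followed (146 ± 24.0 CPM), above KLRK1+ cells in dog 3 with 118 CPM, and exceeded the next state in 4 of 4 dogs. The dog with the fewest CXCR3+ CCR9+ cells had 22 of them. Only 0.570% to 4.55% of the cells of a dog held 10 or more CCL5 UMIs. CCL4 in those CXCR3+ CCR9+ cells was 15.7 ± 6.29 CPM, rank 14 of 17. FOXP3+ cells, the regulatory T cell gene, had the lowest mean CCL5, 11.0 ± 9.21 CPM, and 7.18 CPM without dog 3. States overlap in cells, so that neighbouring values are not independent.

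Per cell, the 2 transcripts were distributed differently. Among GZMB+ CD8A+ sp cells 26.8% ± 5.85 held no CCL4 UMI, 18.4% ± 2.16 held 1, 25.3% ± 2.21 held 2 to 4, 13.6% ± 2.68 held 5 to 9 and 15.8% ± 5.47 held 10 or more. CCL4 was thus spread over all levels. For CCL5, 52.4% ± 12.2 held none and 32% ± 12.5 held 10 or more. Cells with 1, with 2 to 4 and with 5 to 9 CCL5 UMIs made up 4.74% ± 0.319, 5.33% ± 0.771 and 5.46% ± 0.769. Most cells were therefore either without CCL5 or high in it, and cells with 10 or more UMIs held 94.1% ± 4.06 of the CCL5 UMIs against 63.1% ± 8.43 for CCL4. The share of CCL5-high cells differed between dogs, at 44.2%, 39.8%, 16.5% and 27.7% for dogs 1 to 4. The class of 10 or more UMIs has no upper limit. In dog 3 it was less set apart, with 4.83%, 4.69% and 6.05% of cells in the classes from 1 to 9 UMIs and 9.05% at 20 or more.

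**Figure D3:**
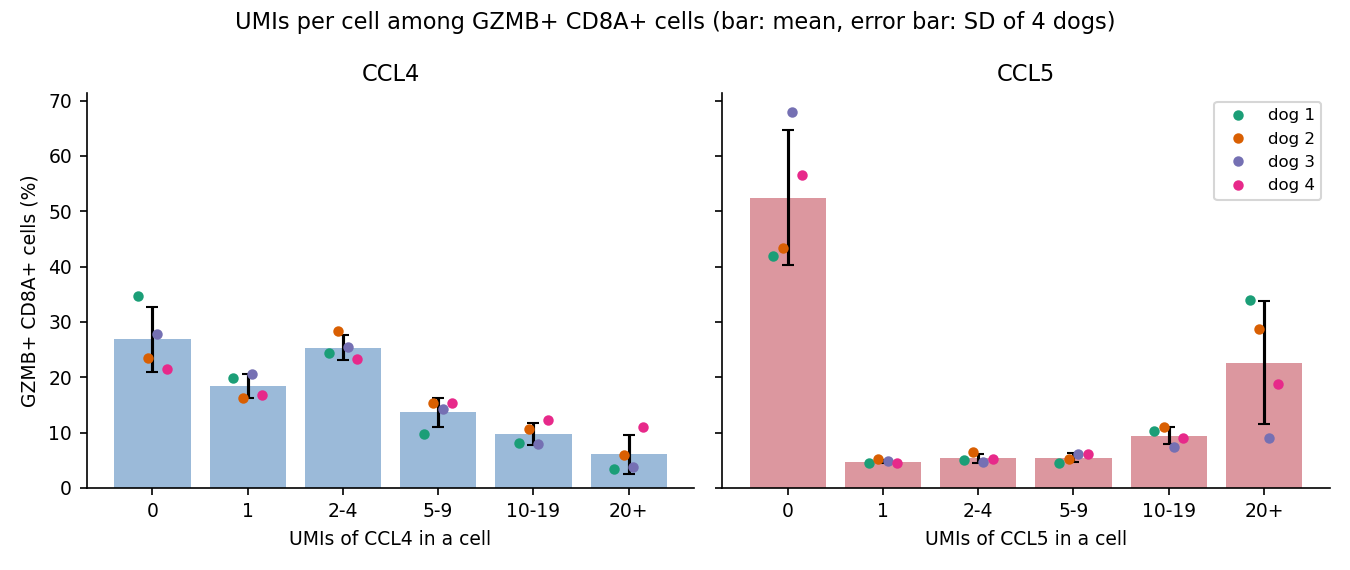
Share of GZMB+ CD8A+ sp cells (percent) by the number of CCL4 (left) or CCL5 (right) UMIs in the cell, with bars at the mean, error bars at the SD and 1 point per dog. CCL4 is spread over the bins, while CCL5 has 52.4% of cells at 0 and 32% at 10 or more UMIs.

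The tendency of cells to hold both chemokines was weaker among GZMB+ than among GZMB- cells in each of the 4 dogs, a difference that was not tested. Odds ratios were taken within 10 bins of cell depth, to compare cells of like depth. In CD8A+ sp cells the log2 odds ratio for holding both was 2.03, 1.79, 1.32 and 0.473 in dogs 1 to 4, with a mean of 1.40 ± 0.685. Among GZMB+ cells alone it was 0.304, 0.0607, 0.275 and -0.0411, with a mean of 0.15 ± 0.167. Among GZMB- cells it was 4.23, 2.94, 2.88 and 1.14, with a mean of 2.80 ± 1.27. In CD4+ sp cells it was 3.30, 2.24, 3.87 and 3.03, with a mean of 3.11 ± 0.677, from 9, 18, 14 and 47 cells with both. The exact two-sided sign-flip permutation p was 0.13, 0.250, 0.13 and 0.13, or 0.179, 0.278, 0.179 and 0.179 after adjustment over the 10 pairs and classes computed, and the smallest p possible was 0.13.

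The pairing with the gating genes followed the same lines. In CD8A+ sp cells GZMB and CCL4 had a log2 odds ratio of 2.92 ± 0.399 and GZMB and CCL5 one of 1.19 ± 0.667, each above 0 in 4 of 4 dogs. GZMK had 2.13 ± 0.198 with CCL4, above 0 in 4 of 4 dogs, and 0.0793 ± 0.639 with CCL5, where the sign differed between dogs. FCER1G had 0.710 ± 0.668 with CCL4 (3 of 4 dogs) and 1.24 ± 0.660 with CCL5 (4 of 4 dogs).

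Genes with the most similar pattern were sought across the 7 to 12 classes per dog made from CD4 or CD8A, GZMB, GZMK and FCER1G, among 5530 genes. The measure was the within-dog Pearson correlation of log2(CPM + 10), averaged over dogs, and the classes of a dog share its library. For CCL4 the nearest genes were ENSCAFG00000009113 (mean r = 0.937), TBX21 (0.926), PRF1 (0.919), SLAMF7 (0.916), ZEB2 (0.914) and ABI3 (0.913). For CCL5 they were CD244 (0.906), PTPN22 (0.892), PLCG2 (0.886), RGS3 (0.884), ENSCAFG00000031581 (0.876) and CD96 (0.870). SLAMF7 and CD244 encode receptors of the SLAM family on killer cells, and PTPN22 encodes a phosphatase that dampens receptor signals. None of the 6 names was shared, and the correlation between CCL4 and CCL5 themselves was 0.802, rank 74 in the list of CCL4 and rank 28 in that of CCL5.

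Because most GZMB+ CD8A+ sp cells were either without CCL5 or high in it, those with 10 or more CCL5 UMIs were compared with those with none. This comparison was added after the distribution had been seen. The classes held 169, 309, 243 and 361 cells against 160, 337, 998 and 735 cells in dogs 1 to 4. Apart from CCL5 itself, 12 of 7659 genes (0.157%) passed in edgeR's quasi-likelihood test, all higher in CCL5-high cells. With the replicate block 132 genes passed, CCL5 included. CCL4 was not among the 12, with a log2 difference of -0.34 (adjusted p = 0.888). None of the 16 cytotoxic genes or 7 effector transcription factors tested was called, which at a share of 0.157% is no result about these lists. Their median log2 differences were -0.046 and -0.243, against -0.00551 over all genes.

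FES, which encodes a non-receptor tyrosine kinase of blood cells, stood at 67.9, 44.0, 50.6 and 66.3 CPM in CCL5-high cells of dogs 1 to 4 and at 13.6, 9.02, 12.7 and 14.9 CPM in cells without CCL5 (log2 difference 2.14, adjusted p = 0.000413). CD7, a surface glycoprotein of T and NK cells, stood at 649, 560.0, 479.7 and 551 CPM against 271, 251, 276 and 213 CPM (1.13, adjusted p = 0.000776). FCRL5, an Fc receptor-like gene best known from B cells, stood at 27.4, 39.5, 11.6 and 22.3 CPM against 1.69, 2.08, 1.38 and 1.53 CPM (3.93, adjusted p = 0.000841). The groups did not overlap for any of these 3 genes, and each kept its call in every setting run. CD96, a receptor of T and NK cells for nectin-like ligands, rose by 1.06 (adjusted p = 0.00263) and lost its call without dog 4 (1.07, adjusted p = 0.074).

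Among the remaining genes, CCR9, a gut-homing chemokine receptor, stood at 40.5, 37.2, 47.4 and 66.9 CPM against 0, 13.2, 13.5 and 9.19 CPM (2.16, adjusted p = 0.0127), without a call when dog 3 (2.42, adjusted p = 0.0696) or dog 4 (1.86, adjusted p = 0.314) was left out. GCSAM (3.75, adjusted p = 0.0115), NUGGC (2.93, adjusted p = 0.0289) and GYG1 (1.35, adjusted p = 0.0174) each lost the call without dog 1, dog 3 or dog 4. The adjusted p was then 0.0685 to 0.143 for GCSAM, 0.151 to 0.496 for NUGGC and 0.0696 to 0.106 for GYG1. DENND4A (1.21, adjusted p = 0.0307) lost it without any one of the dogs (adjusted p = 0.0931 to 0.434). Of the genes known by identifier only, ENSCAFG00000013040 (2.54, adjusted p = 0.00111) kept its call in every setting run. ENSCAFG00000041010 (2.31, adjusted p = 0.00992) lost it without dog 1 (2.16, adjusted p = 0.0864), and ENSCAFG00000031543 (3.83, adjusted p = 0.00796) without dog 1 (3.62, adjusted p = 0.0729) or dog 4 (3.63, adjusted p = 0.156). The number of genes called, CCL5 included, was 13, and 27 without dog 2 and 6 without dog 4. FCER1G UMIs were in 33.1%, 46.6%, 27.6% and 31.0% of the CCL5-high cells and in 28.7%, 20.8%, 16.4% and 19.2% of those without CCL5, higher in each dog. GZMK UMIs were in 46.2%, 75.7%, 77.4% and 64.8% against 75.0%, 77.4%, 87.4% and 76.3%, lower in each dog. Clones of 10 or more cells made up 59.3% against 34.1% in dog 4 and a lower share of the CCL5-high cells in the other dogs. The part of these in the result was not tested. Without clones of 10 or more cells, 13 genes passed again, of which CCL5 was one, and DENND4A was not called (1.11, adjusted p = 0.126).

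**Figure D4:**
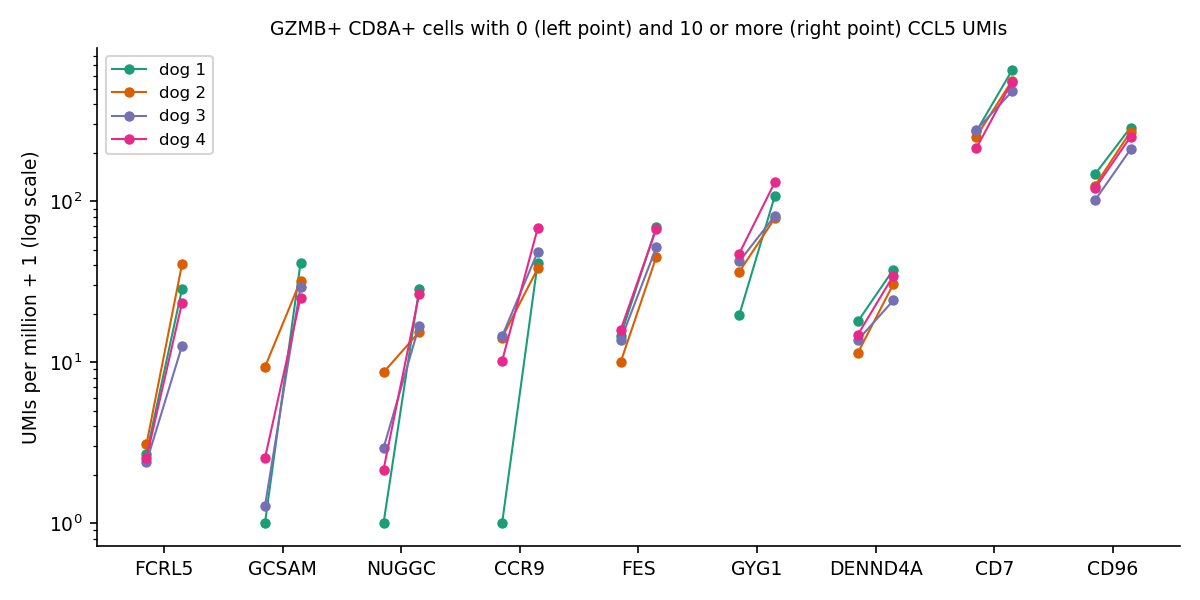
CPM plus 1 (log scale) of the 9 named genes called in the comparison of GZMB+ CD8A+ sp cells by CCL5, with 1 line per dog from cells with 0 CCL5 UMIs (left point) to cells with 10 or more (right point). All lines rise, and none of the 9 genes has an overlap between the groups. The genes were chosen by the test on these same counts, so their rise is not further support.

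The same split was made for CCL4, between GZMB+ CD8A+ sp cells with 5 or more UMIs and with none. Only 2 of 7187 genes (0.0278%) passed besides CCL4, and both were lower in CCL4-high cells. KRT18, an intermediate filament gene, stood at 0, 7.93, 6.19 and 8.33 CPM against 39.4, 34.1, 30.9 and 35.0 CPM (-2.28, adjusted p = 0.00577). TCF7 stood at 53.1, 60.8, 72.2 and 56.8 CPM against 139, 229, 109 and 161 CPM (-1.33, adjusted p = 0.0173). Neither gene's groups overlapped, but KRT18 lost its call without dog 2 (-2.35, adjusted p = 0.0885), dog 3 (-2.27, adjusted p = 0.0543) or dog 4 (-2.47, adjusted p = 0.0806). TCF7 lost it without dog 1 (-1.34, adjusted p = 0.0636), dog 2 (-1.10, adjusted p = 0.0931) or dog 4 (-1.28, adjusted p = 0.214). With the replicate block 387 genes passed, CCL4 included. Median depths were 3386 to 4218 UMIs per dog in CCL4-high cells and 3257 to 3565 in those without. GZMK UMIs were in 61.7%, 85.0%, 87.8% and 79.0% of CCL4-high cells against 57.6%, 67.6%, 80% and 58.8%, higher in each dog, and the part of this was not tested. CCL5 differed by 0.22 (adjusted p = 0.910), and by -0.02 without dog 2 (adjusted p = 1.0).

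The receptor data allowed cells to be grouped into clones, that is, cells of a dog with the same TRBV gene, TRBJ gene and junction in cells with 1 productive beta chain. CD8A+ sp cells of expanded clones (3 or more cells) were compared with cells whose rearrangement was found once. Cells found once had CCL4 at 449, 631, 298 and 1311 CPM and CCL5 at 3054, 1477, 961 and 679 CPM in dogs 1 to 4. Cells in clones of 10 or more had CCL4 at 905, 1064, 1061 and 1532 CPM and CCL5 at 4532, 3894, 727 and 3361 CPM. CCL4 was higher in all 4 dogs, and CCL5 in all but dog 3. Expanded against single cells, the log2 difference was 0.68 for CCL4 (SE 0.35, adjusted p = 0.451) and 1.06 for CCL5 (SE 0.52, adjusted p = 0.422), where 1.21% of 8287 genes passed. Both passed with the replicate block, at 0.83 for CCL4 (adjusted p = 0.0137) and 1.03 for CCL5 (adjusted p = 0.0101).

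Clones ranged widely in both chemokines. In 73 CD8A+ sp clones with 10 or more cells (2121 cells) the share of cells with 10 or more CCL5 UMIs ranged from 0% to 100%, with a median of 22.2%. There were 19 clones with no such cell and 22 in which they made up 50% or more, and 10 clones held no CCL5 UMI at all. CCL4 UMIs were found in a median of 76.2% of a clone's cells, and in 50% or more in 59 of the 73 clones, with a range of 0% to 100% as for CCL5, at the lower cut of 1 UMI. The median CCL5-high share of a clone was 47.1%, 64.3%, 3.99% and 29.3% in dogs 1 to 4, and 10 of the 19 clones without a CCL5-high cell were in dog 3. In dog 3 the share ran from 0% to 66.7%, while its CCL4 share ran from 0% to 96.6%.

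Clones of like granzyme state were then examined. Of the 73 clones, 34 had GZMB in 80% or more of their cells, GZMK in 60% or more and FCER1G in under 10%. In these the CCL5-high share ran from 0% to 93.3% (median 12.9%), with 12 clones at 0 and 5 at 50% or more. CCL4, at the lower cut of 1 UMI, was found in 58.8% to 96.6% of the cells of each. The 2 ranges are thus not at like cuts, and the clones were chosen by GZMB and GZMK, with which CCL4 was often found. Mean CCL4 UMIs per cell ran from 2.03 to 17.4 among these clones. In dog 3, a TRBV5-2 clone of 146 cells had no CCL5 UMI in 144 of them and CCL4 in 67.1%.

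For each dog, the beta chain junctions of the clones with the lowest and the highest CCL5-high share among these 34, of those with 15 or more cells, are printed below to show the receptors at both ends of this range. In dogs 3 and 4 several clones tied for the lowest share, and the largest of them is printed. The highest clone of dogs 1 and 3 was mixed, with under 50% of its cells at 10 or more CCL5 UMIs. They are the deposited nucleotide sequences, 5′ to 3′, and the capitals mark the codons of the conserved cysteine and of the closing phenylalanine.
dog 1, TRBV25, lowest share: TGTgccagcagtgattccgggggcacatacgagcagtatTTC
dog 1, TRBV7, highest share: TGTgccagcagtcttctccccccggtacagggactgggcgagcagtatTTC
dog 2, TRBV25, lowest share: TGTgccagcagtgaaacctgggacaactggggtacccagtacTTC
dog 2, TRBV3-2, highest share: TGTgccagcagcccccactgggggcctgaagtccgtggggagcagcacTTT
dog 3, TRBV18, lowest share: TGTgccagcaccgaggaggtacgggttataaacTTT
dog 3, TRBV18, highest share: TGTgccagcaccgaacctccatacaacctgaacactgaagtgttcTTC
dog 4, TRBV7, lowest share: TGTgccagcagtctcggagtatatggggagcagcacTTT
dog 4, TRBV16, highest share: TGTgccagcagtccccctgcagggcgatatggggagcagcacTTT

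The clone of dog 2 with TRBV25 had 58 of 60 cells without CCL5, none with 10 or more UMIs (exact 95% interval 0% to 5.96%) and CCL4 in 93.3%. Its TRBV3-2 clone had 14 of 18 cells with 10 or more (77.8%, interval 52.4% to 93.6%) and CCL4 in 66.7%. The TRBV16 clone of dog 4 had 56 of 60 cells with 10 or more CCL5 UMIs (93.3%, interval 83.8% to 98.2%), none without CCL5 and CCL4 in 85.0%. In the TRBV7 clone of that dog 25 of 27 cells were without CCL5 (share with 10 or more 0%, interval 0% to 12.8%) and CCL4 was in 70.4%. In dog 3, the TRBV18 clones stood at 0 of 61 (0%, interval 0% to 5.87%) and 10 of 26 (38.5%, interval 20.2% to 59.4%), with CCL4 in 82.0% and 96.2%. In dog 1 the clones stood at 1 of 21 (4.76%, interval 0.12% to 23.8%) and 8 of 17 (47.1%, interval 23.0% to 72.2%). The intervals cover counting error only and treat the cells of a clone as independent. TRBV7 and TRBV18 each occurred on both sides, and the clones were chosen for their CCL5 shares, so no test was made between them.

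**Figure D5:**
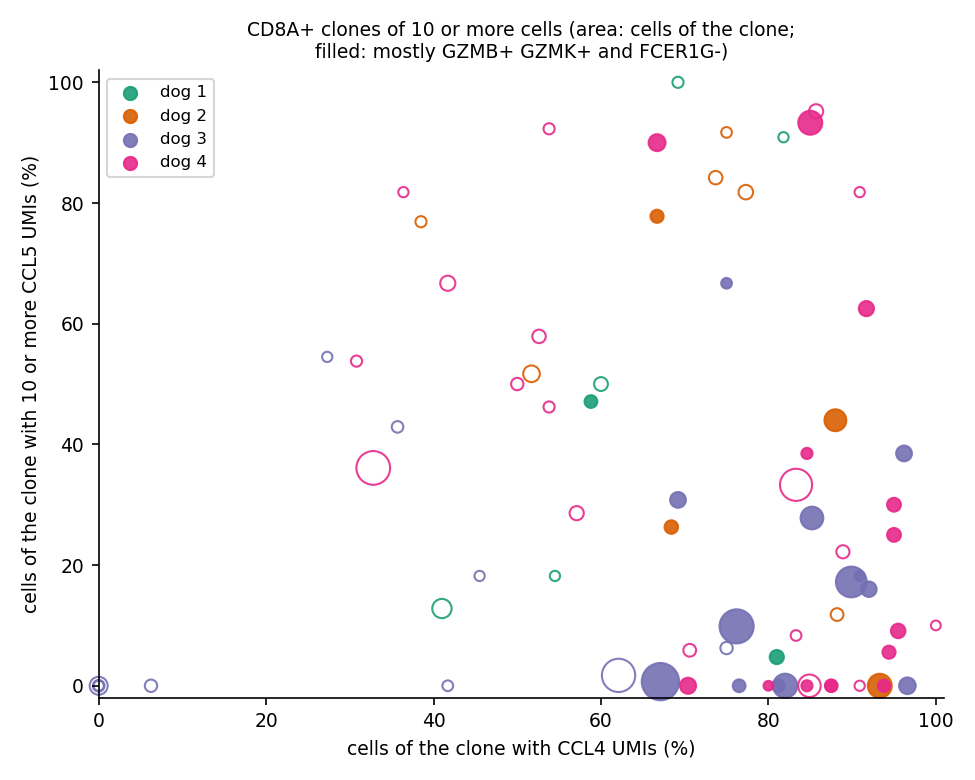
Each circle is 1 of 73 CD8A+ sp clones of 10 or more cells, by the percent of its cells with CCL4 UMIs (horizontal) and with 10 or more CCL5 UMIs (vertical), with area in proportion to cells and colour by dog. Filled circles are the 34 clones with both granzymes and without FCER1G, which lie at 58.8% or more on the CCL4 axis and run from 0% to 93.3% on the CCL5 axis.

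As a description of how much of each gene's variation lay between clones, the share of variance between the clones of a dog was computed on depth-scaled log values. It was 0.454 for CCL5, rank 7 of 4078 genes, and 0.295 for CCL4, rank 28, where the median gene had 0.00602. In dogs 1 to 4 taken alone it was 0.516, 0.576, 0.277 and 0.503 for CCL5 and 0.109, 0.283, 0.269 and 0.346 for CCL4, nearly equal in dog 3, which held 915 of the 2121 cells. FCER1G ranked first at 0.821, with GZMB at 0.599 and GZMK at 0.558. Within GZMB+ FCER1G- cells (39 clones, 1187 cells), CCL5 kept 0.459, rank 3 of 3817, while CCL4 had 0.147, rank 30, and GZMB 0.193. In dogs 1 to 4 taken alone these cells gave 0.212, 0.594, 0.279 and 0.603 for CCL5. For CCL4 they gave 0.289, 0.116, 0.0962 and 0.198, so that CCL4 had the larger share in dog 1 (4 clones, 78 cells). Leaving out 1 dog at a time in all CD8A+ sp cells gave 0.407 to 0.521 for CCL5. Clones share the library of their dog, and no p-value was computed over clones.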

How the data were processed

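The study measured gene expression and T cell receptors in 4 dogs. The expression files hold raw UMI counts by gene and barcode of called cells, which the authors made with Cell Ranger 5.0.1 (submitters' processing notes) on CanFam 3.1 and did not normalize. For the receptors, the deposited files list rearrangements with V and J genes and junctions, of which the productive ones were used. For dog 1 the list of genes (27980 lines for 20257 genes in the matrix) was replaced by that of dogs 2 to 4 (correlations of log row totals 0.991, 0.990 and 0.989). Doublets had been gated out at the sort and no caller was run. Cells with more than 1 beta chain were left out as an alternative.

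Counts were summed per dog and class of 20 or more cells and tested with edgeR 4.0.16 in R 4.3.3 (TMM, filterByExpr, quasi-likelihood test, Benjamini-Hochberg over all genes tested), with 4 dogs as replicates. Summed counts of 4 dogs carry the spread between animals, while counting error alone bounds shares in single clones. DESeq2 1.42.0, other filters, definitions of a positive cell, the dog as a block and leaving out each dog were alternatives. The dogs pair the classes, since both come from 1 animal, and the deviations of same-dog sums correlated at 0.189 to 0.673 in 8 comparisons. Scripts were tested on simulated data. Shares, odds ratios and sign-flip tests used Python 3.11.15 with scipy 1.17.1. Named genes were CCL4 and CCL5, the gating genes, up to 4 called genes per list by size of change, the 6 genes most like each chemokine, and the genes called in the 2 added comparisons. The genes, lists and tests were chosen with earlier results of these data known. One further gene is not reported here.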

Additional observations from a re-analysis of the deposited data

Results flagged for a closer look

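Among 168 sets of 4 dogs' values, 11 had a dog that stood apart by Dixon's ratio at the 95% level, where chance gives about 1 in 20 sets. CCL4 in cells with both coreceptors was 545 CPM in dog 4 against 275 to 312 CPM in the others, and CCL5 there was 355 CPM in dog 3 against 904 to 987 CPM. CCL4 in CD8A+ sp FCER1G+ GZMB- cells was 1321 CPM in dog 1, from 27 cells, against 519 to 633 CPM. Of these 27 cells, 10 with GZMK held 140 CCL4 UMIs and 17 without it held 47. Dog 4 was high for CCL4 in 3 CD4+ classes, namely PDCD1+ GZMB- cells (343 CPM against 4.34 to 54.2), GZMB- cells (47.3 CPM against 8.88 to 14.5) and cells with CCR7 and LEF1 and none of the 3 cytotoxic genes (6.89 CPM against 0.659 to 1.43). CCL4 in FOXP3+ CD4+ sp cells was 28.3 CPM in dog 2 against 3.91 to 7.12 CPM. In cycling MKI67+ TOP2A+ cells of dog 4, of which there were 22, CCL5 was 1476 CPM against 376 to 513 CPM and was found in 36.4% of cells against 14.3% to 17.4%. CCL5 in GZMB+ GZMK- CD8A+ sp cells was 9268 CPM in dog 1 against 2874 to 3588 CPM. CCL4 was found in 75.1% of TRAV9-11/TRAJ28 CD8A+ sp cells of dog 2 against 58.8% to 61.4%.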

How the results depend on the processing

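Over all settings run, 233 log2 differences of CCL4 or CCL5 kept their direction and side of the threshold, 14 newly passed, 2 lost their call and 5 changed sign, none of the last with a call. With the dog as a replicate block, the pairing brought calls for CCL5 by GZMB in CD8A+ sp cells (1.06), CCL5 by GZMK in CD4+ sp cells (2.09), both chemokines by clone expansion (0.83 and 1.03), and the lineage difference of the GZMB contrast (-1.81 for CCL4, -3.32 for CCL5) and of the GZMK contrast (-2.57 and -2.47), and it changed no other call of the chemokines. Without a filter on low counts, CCL5 by GZMK in CD4+ sp cells (2.0) and the GZMK lineage difference of CCL4 (-2.58) passed. DESeq2 called the latter (-2.61) and the GZMB lineage difference of CCL5 (-3.26). Positive cells defined by 2 or more UMIs gave a call for CCL5 by GZMK in CD4+ sp cells (2.37) and 39.7% of CD8A+ sp cells with CCL4, against 45.9% after thinning. Without clones of 10 or more cells CCL5 differed by -0.01 with CCL4. Leaving out 1 dog gave -0.67 to 0.26 for CCL5 by GZMK and -0.17 to 0.47 for CCL4 by FCER1G in CD8A+ sp cells. It gave 3.52 to 4.33 for CCL4 by GZMB in CD4+ sp cells, -0.18 to 0.42 for CCL4 between the single-granzyme classes, -2.80 to -2.34 for the GZMK lineage difference of CCL4 and -0.02 to 0.45 for CCL5 between CCL4 classes. The causes were not tested.

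Counts of genes called, with gating genes, were highest with the block in each comparison. Lineage gave 1429 genes (2744 with the replicate block, 706 to 1270 without 1 dog). In CD8A+ sp cells GZMB gave 665 (1620, 247 to 522), GZMK 462 (1172, 224 to 301) and FCER1G 164 (461, 68 to 160, and 311 without clones of 10 or more cells). In CD4+ sp cells GZMB gave 193 (913, 9 to 299, DESeq2 503) and GZMK 25 (520, 4 to 34, DESeq2 100, no filter 55, 2 or more UMIs 39). The single-granzyme classes gave 194 (443, 83 to 134, no filter 395) and expansion 100 (462, 30 to 74, no filter 180, DESeq2 190, 2 or more UMIs 52). The GZMB and GZMK lineage differences gave 4 and 1 (190 and 93, 0 to 8 and 0 to 2, DESeq2 79 and 32), and the latter 10 without a filter and 0 with 2 or more UMIs. The CCL5 split gave 13 (132, 6 to 27, DESeq2 39, no filter 56, 30 from 20 CCL5 UMIs). The CCL4 split gave 3 (387, 1 to 9, DESeq2 48, no filter 69, 25 from 10 CCL4 UMIs, 36 without clones of 10 or more cells, 9 without cells with more than 1 beta chain). The splits by CCL5 or CCL4 UMIs and the setting without large clones were chosen after seeing the data. FCER1G in CD4+ sp cells and its lineage difference could not be fitted, nor could 2 or more UMIs for GZMB in CD4+ sp cells and its lineage difference, for lack of cells. Few cells limit the values of single clones and of the 305 GZMB+ CD4+ sp cells.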

Other observations

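The levels of CCL4 and CCL5 in classes of CD4+ sp cells were as follows. In CD4+ sp cells with both granzymes and no FCER1G (76 cells, 2 dogs with enough cells), CCL4 was 881 ± 242 CPM, found in 63.2% ± 15.6 of cells, and CCL5 was 1064 ± 741 CPM, found in 22.7% ± 4.76. With GZMB but not GZMK (222 cells, 4 dogs), CCL4 was 92.4 ± 32.7 CPM and CCL5 453 ± 371 CPM. With GZMK but not GZMB (985 cells, 4 dogs), CCL4 was 153 ± 112 CPM and CCL5 83.5 ± 73.6 CPM, which was 47.0 CPM without dog 4. These classes were described without a test.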
